A study of Mus musculus with 28 samples.

Results

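The genes of the EGF receptor system were followed through colon organoids in which tumor alleles were switched on. The set holds 9 genes, all of them among the 13519 genes counted: the receptors *Egfr*, *Erbb2* and *Erbb3*, the ligands *Areg* (amphiregulin), *Ereg* (epiregulin), *Tgfa* (transforming growth factor alpha), *Hbegf* (heparin-binding EGF-like growth factor) and *Btc* (betacellulin), and *Errfi1*, the inhibitor also called MIG6. Members were taken by name from a list of ErbB receptors, EGF-like ligands and this inhibitor, and their measured values were not part of the rule. Ligands of this family are made as membrane-bound precursors and are cut free by metalloproteases such as ADAM17. Binding brings receptors together in pairs that signal through RAS, RAF, MEK and ERK and through PI3K and AKT. *Erbb2* encodes a receptor with no known ligand of its own, and *Erbb3* one that binds neuregulins and has little kinase activity. *Errfi1* is itself induced by ERK signaling and its protein blocks the kinase domain of EGFR. In the intestinal crypt, EGF signals support stem cell division, and EGF is a standard part of organoid medium, these cultures included.

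Organoids of 4 genotypes were sequenced, all from C57BL/6N mice and all carrying VillinCreERT2, in which the villin promoter drives a tamoxifen-dependent Cre in intestinal epithelium. AC organoids were VillinCreERT2::APCflox/flox, PAC organoids added Trp53LSL-R172H/+, BAC organoids added BraffloxV600E/+, and BPAC organoids carried both additions. Cultures were given ethanol (EtOH) as vehicle or 3.5 µM 4-hydroxytamoxifen (4-HT) for 24 hours, and RNA was taken 3 days later. EtOH-treated organoids thus carried the alleles unrecombined, and all 4-HT-treated groups share the deletion of floxed *Apc*. AC came from 1 donor mouse and PAC, BAC and BPAC from 2 donors each, with 2 cultures per donor (duplicates 1 and 2). Each of the 14 cultures has an EtOH-treated and a 4-HT-treated sample, which makes 28 samples in 8 groups, with n = 2 in each AC group and n = 4 in the others. Cultures of 1 donor share an animal, so p-values measure the spread between cultures more than that between mice. Where a gene's values in a group are listed, they stand in the order donor 1 duplicate 1, donor 1 duplicate 2, donor 2 duplicate 1 and donor 2 duplicate 2. Overlap between groups is given as a description of these genes, and the share of all genes that separate likewise is not given here.

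The samples held 20577276 to 40068718 counts on genes, and the 9 genes had between 156 counts (*Ereg* in 1 sample) and 11922 counts (*Erbb3* in 1 sample). Levels are given as CPM, a gene's counts relative to the total of its library, scaled between samples by TMM, the trimmed mean of M values. As a check of the labels, *Trp53* lay between 51.4 and 66.0 CPM in the 8 EtOH-treated samples with the LSL allele, which is silent before recombination, and between 97.9 and 122 CPM in the 6 without it. *Apc* was at 27.9 to 49.7 CPM with EtOH and at 51.4 to 73.8 CPM with 4-HT (n = 14 each), where counts over the whole gene do not show the loss of the floxed part and so check nothing. *Braf* lay between 20.2 and 27.9 CPM in all samples. With EtOH it was at 20.2 to 25.4 CPM (median 21.5, n = 8) with the floxed *Braf* allele and at 24.4 to 27.9 CPM (median 26.3, n = 6) without it. With 4-HT it was at 20.5 to 24.2 CPM (median 22.9) with the allele and at 20.3 to 27.3 CPM (median 22.0) without it. Several features of the samples bear on what follows. In PAC, the 4-HT-treated duplicate 1 samples of both donors each held *Xist* and Y-linked genes above 1 CPM, which no other sample did, and these 2 samples were more alike than any other pair (r = 0.997). Whether they represent separate donors was not tested, and the PAC changes after 4-HT are therefore given with and without the 2 cultures. In BPAC, the EtOH-treated sample of donor 1 duplicate 2 stood apart in several of the 9 genes, with the highest *Erbb2*, *Erbb3* and *Tgfa* and the lowest *Areg* levels of all 28 samples.

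Positions are those of the GRCm38 build, and every member is annotated there as protein coding. Among the receptors, *Egfr* (ENSMUSG00000020122, chromosome 11, bases 16752203 to 16918158) and *Erbb2* (ENSMUSG00000062312, chromosome 11, bases 98412470 to 98437716) lie on the plus strand and *Erbb3* (ENSMUSG00000018166, chromosome 10, bases 128567523 to 128589652) on the minus strand. Of the ligands, 3 lie together on chromosome 5. These are the neighbors *Ereg* (ENSMUSG00000029377, chromosome 5, bases 91074622 to 91093646) and *Areg* (ENSMUSG00000029378, chromosome 5, bases 91139599 to 91148432) of the plus strand and *Btc* (ENSMUSG00000082361, chromosome 5, bases 91357261 to 91402994) of the minus strand. *Tgfa* (ENSMUSG00000029999, chromosome 6, bases 86195223 to 86275719) lies on the plus strand, as does the inhibitor *Errfi1* (ENSMUSG00000028967, chromosome 4, bases 150853919 to 150868892), and *Hbegf* (ENSMUSG00000024486) is found on yet another chromosome. *Egfr* overlaps the antisense gene *Egfros*, *Erbb2* overlaps *Mien1* on the opposite strand, and *Errfi1* overlaps the antisense gene *1700045H11Rik*. All 3 neighbors were counted too, and whether reads were counted by strand is not given in the sources used here, so reads of these pairs cannot be told apart.

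For 6 of the 9 genes promoters from RefSeq (GRCm38.p6) were used, with 2 for *Errfi1* and none for *Ereg*, *Erbb3* and *Hbegf*. The 250 bases before the start were searched on both strands for 4 motifs, which do not overlap each other in these windows. TGACGTCA, the full cyclic AMP response element (CRE) bound by CREB and ATF proteins, was in 1.55% of the 32851 promoters searched. TGANTCA, the AP-1 motif, was in 6.75%, CTTTGA, part of the motif of TCF factors, in 13.8%, and GGAAG, the core bound by ETS factors, in 64.1%. The CRE was present at *Areg*, 61 bases before the start, and in 1 of the 2 *Errfi1* promoters, 51 bases before a start that lies inside the annotated gene. *Areg* also held an ETS core, *Egfr* and *Tgfa* held 2 each and *Erbb2* held 1. The other *Errfi1* promoter held the TCF motif and an ETS core, the *Btc* promoter held none of the 4, and none of the 6 genes searched had the AP-1 letters. A match describes these letters only. Shown in the direction of transcription, with motif matches in capitals, are the pair with the CRE (*Areg* at chr5:91139349-91139598, plus strand, and *Errfi1* at chr4:150854820-150855069, plus strand), the promoter of *Btc*, the ligand whose level rose (chr5:91402995-91403244, minus strand), and those of *Egfr* (chr11:16751953-16752202, plus strand) and *Erbb2* (chr11:98412234-98412483, plus strand), receptors whose levels fell.
Areg: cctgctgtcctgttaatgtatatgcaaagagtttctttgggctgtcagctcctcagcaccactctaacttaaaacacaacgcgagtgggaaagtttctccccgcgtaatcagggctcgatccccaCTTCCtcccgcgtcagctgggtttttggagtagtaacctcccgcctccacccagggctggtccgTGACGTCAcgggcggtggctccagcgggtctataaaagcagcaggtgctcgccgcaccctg
Errfi1: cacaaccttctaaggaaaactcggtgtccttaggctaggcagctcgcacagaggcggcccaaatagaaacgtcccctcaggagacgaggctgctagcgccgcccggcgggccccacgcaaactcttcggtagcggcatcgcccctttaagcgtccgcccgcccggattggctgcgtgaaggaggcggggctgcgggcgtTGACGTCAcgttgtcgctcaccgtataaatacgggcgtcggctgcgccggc
Btc: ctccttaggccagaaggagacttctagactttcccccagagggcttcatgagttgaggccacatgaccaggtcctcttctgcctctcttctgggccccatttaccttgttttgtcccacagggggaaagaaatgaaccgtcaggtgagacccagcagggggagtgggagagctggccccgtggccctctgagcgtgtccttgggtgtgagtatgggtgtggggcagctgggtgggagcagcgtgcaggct
Egfr: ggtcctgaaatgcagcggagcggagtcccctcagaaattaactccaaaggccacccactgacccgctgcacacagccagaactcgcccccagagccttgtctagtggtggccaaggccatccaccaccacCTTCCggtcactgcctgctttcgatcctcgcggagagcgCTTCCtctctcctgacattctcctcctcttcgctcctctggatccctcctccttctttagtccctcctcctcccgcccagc
Erbb2: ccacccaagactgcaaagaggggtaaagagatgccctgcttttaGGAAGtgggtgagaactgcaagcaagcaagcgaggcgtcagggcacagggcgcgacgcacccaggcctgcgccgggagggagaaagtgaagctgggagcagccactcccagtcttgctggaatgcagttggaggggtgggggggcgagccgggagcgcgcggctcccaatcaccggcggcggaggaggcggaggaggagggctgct

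After 4-HT the receptors and *Hbegf* fell and *Btc* rose, while *Areg*, *Ereg* and *Tgfa* were called in no genotype by edgeR with TMM scaling and no culture block, though each was called in some genotype under another scaling, block or choice of cultures. A gene is called where its adjusted p (Benjamini-Hochberg over all 13519 genes) is under 0.01. Of the 9 genes, 4-HT-treated AC organoids had 1 lower and 0 higher than EtOH-treated ones at an adjusted p under 0.01, against 4.25% of all genes lower and 3.00% higher. PAC had 3 lower and 0 higher, against 12.2% and 11.2% of all genes. BAC had 4 lower and 1 higher, against 21.5% and 20.3%, and BPAC had 5 lower and 1 higher, against 23.0% and 22.0%. The median log2 change of the 9 genes was -0.32, -0.26, -0.18 and -0.41 for AC, PAC, BAC and BPAC, and that of all genes lay between -0.03 and 0.01. *Erbb3* was called in all 4 genotypes, *Erbb2* and *Hbegf* in 3, *Egfr* and *Btc* in 2 and *Errfi1* in 1. Without the duplicate 1 cultures of PAC, which leaves n = 2 per treatment, 0 of the 9 were called there by edgeR, with 3 at an unadjusted p under 0.05, where 23.9% of all genes lay. Blocking on the culture, which sets each 4-HT-treated sample against the control of the same donor and duplicate number, gave 5 calls in PAC, with *Btc* and *Errfi1* added. It also added *Ereg* in BAC and *Tgfa* in BPAC. None of these 4 was called with the duplicates of a donor summed, which gave 2, 4 and 5 calls for PAC, BAC and BPAC with n = 2 per treatment. The shares of all genes called with the block or with the sums are not given here, so these counts are no result about the 9 genes. In AC, with 1 donor, the sums leave 1 sample per treatment, so the 1 call there assumes that it varies like the other groups. Without the BPAC culture that stood apart, 5 of the 6 BPAC calls remained and that of *Errfi1* was lost. Scaling by library size alone moved the median change of all genes to between 0.14 and 0.23 on the log2 scale, and raised the share of higher genes among those called from 41.4% to 83.3% in AC, from 47.7% to 82.1% in PAC, from 48.6% to 65.3% in BAC and from 48.9% to 68.0% in BPAC. With this scaling the split of calls in PAC became 1 lower (*Erbb3*) and 2 higher (*Areg* and *Btc*), AC had 0 calls, and BAC and BPAC each had 3 lower (the same in both, *Erbb2*, *Erbb3* and *Hbegf*) and 1 higher (*Btc*).

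**Figure D1:**
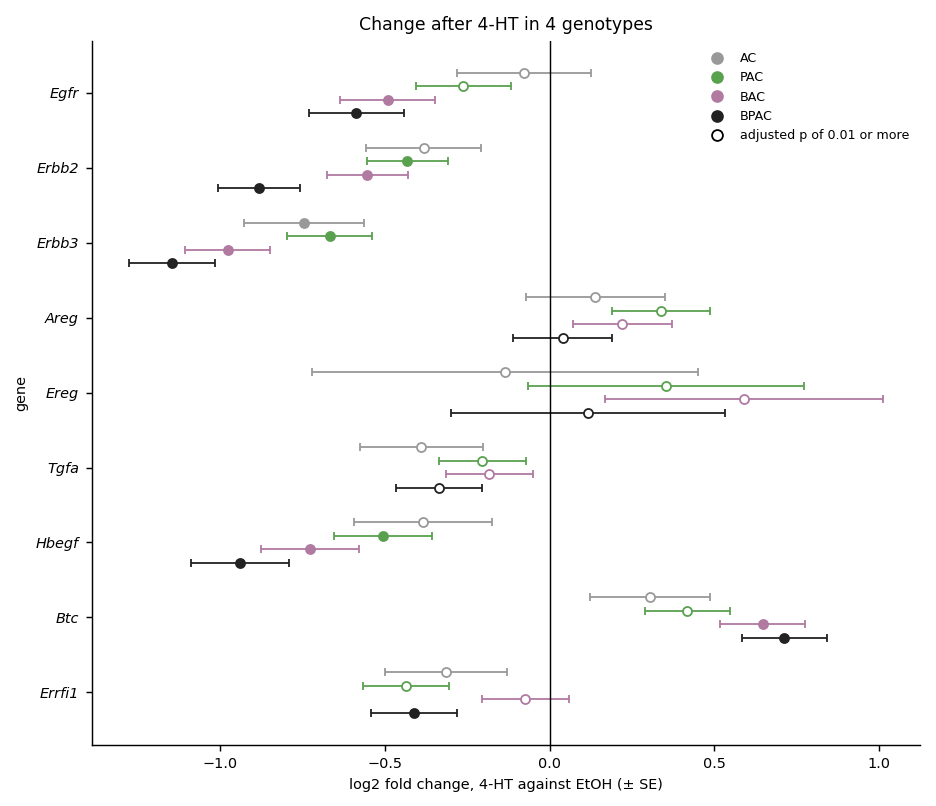
Log2 fold change of each gene after 4-HT against EtOH (x axis, points with SE bars) for AC, PAC, BAC and BPAC, with filled points where the adjusted p was under 0.01. *Erbb3* lies left of 0 and filled in all 4 genotypes, *Btc* lies right of 0 in all 4, and the *Areg* and *Ereg* points are all open.

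Colonocyte and stem cell markers moved with these changes, and in bulk RNA fewer cells of a type and less RNA per cell cannot be told apart. Of all genes 4.25%, 12.2%, 21.5% and 23.0% fell in AC, PAC, BAC and BPAC and 3.00%, 11.2%, 20.3% and 22.0% rose, and the marker counts are to be read against these shares. Of 15 colonocyte markers, genes of the mature absorptive cell, the numbers that fell were 6 (AC), 10 (PAC), 14 (BAC) and 15 (BPAC) and 0 rose. Their summed level ranged from 25156 to 34974 CPM over the EtOH-treated samples and from 5709 to 17063 CPM over the 4-HT-treated ones. Their median log2 change was -1.39, -1.37, -2.03 and -2.57 for AC, PAC, BAC and BPAC. Of 9 counted stem cell markers, 5, 8, 6 and 8 rose in AC, PAC, BAC and BPAC and 0 fell, with sums of 656 to 1146 CPM with EtOH and 1303 to 2015 CPM with 4-HT. Of 10 goblet cell markers, 1, 3, 3 and 3 rose and 0, 0, 3 and 3 fell, with sums of 2344 to 5983 CPM and 2192 to 3449 CPM, and the BAC and BPAC counts are near the shares of all genes. The 10 epithelial markers that define the labelled cell type were all present, with summed levels of 17511 to 31227 CPM, and 1, 3, 5 and 6 of them fell. The 5 counted markers of fibroblasts, endothelium and immune cells summed to 8.18 to 21.2 CPM (0 fell in AC and PAC, 2 in BAC and BPAC, 0 rose), and the other 7 of that list, *Ptprc* and the collagens among them, were not analysed here. The part of cell type in the receptor and ligand levels was not tested.

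*Erbb3* encodes the neuregulin receptor and fell in every genotype. *Erbb3* in AC stood at 404 and 361 CPM with EtOH and at 231 and 224 CPM with 4-HT. *Erbb3* in PAC stood at 379, 345, 376 and 344 CPM with EtOH and at 197, 257, 200 and 256 CPM with 4-HT. All EtOH-treated values lay above all 4-HT-treated ones in both genotypes. *Erbb3* in BAC stood at 358, 326, 381 and 329 CPM with EtOH and at 156, 186, 170 and 196 CPM with 4-HT. *Erbb3* in BPAC stood at 389, 482, 329 and 376 CPM with EtOH and at 155, 219, 139 and 199 CPM with 4-HT. Across the 4 genotypes the 14 EtOH-treated samples (326 to 482 CPM) did not overlap the 14 4-HT-treated ones (139 to 257 CPM). In AC the level fell by 0.75 (SE 0.18) on the log2 scale, to 0.596 times the EtOH level (adjusted p = 0.0070), and the call was lost when either AC culture was left out, with log2 changes of -0.69 (adjusted p = 0.19) and -0.80 (adjusted p = 0.10), and with library size alone at -0.53 (adjusted p = 0.033) or AC fitted alone at -0.76 (adjusted p = 0.014). In PAC it fell by 0.67 (SE 0.13) on the log2 scale, to 0.630 times the EtOH level (adjusted p = 0.00034). Without the PAC cultures of duplicate 1 the PAC log2 change was -0.43 (SE 0.18, adjusted p = 0.15). In BAC *Erbb3* fell by 0.98 (SE 0.13) on the log2 scale, to 0.508 times the EtOH level (adjusted p = 9.5e-07), with log2 changes of -1.16 in duplicate 1 and -0.78 in duplicate 2. In BPAC *Erbb3* fell by 1.15 (SE 0.13) on the log2 scale, to 0.452 times the EtOH level (adjusted p = 7.4e-08), with log2 changes of -1.30 in duplicate 1 and -1.04 in duplicate 2.

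*Erbb2*, the partner receptor without its own ligand, fell in PAC, BAC and BPAC. *Erbb2* in AC stood at 276 and 277 CPM with EtOH and at 209 and 215 CPM with 4-HT. *Erbb2* in PAC stood at 260, 239, 299 and 306 CPM with EtOH and at 189, 208, 189 and 234 CPM with 4-HT. The treatments did not overlap in either genotype. *Erbb2* in BAC stood at 283, 243, 281 and 275 CPM with EtOH and at 174, 175, 200 and 188 CPM with 4-HT. *Erbb2* in BPAC stood at 297, 471, 277 and 315 CPM with EtOH and at 171, 200, 173 and 195 CPM with 4-HT. Here too every 4-HT-treated sample lay below every EtOH-treated one, and the BPAC sample of donor 1 duplicate 2 was far above its group. The AC log2 change was -0.38 (SE 0.17, adjusted p = 0.13). In PAC the level fell by 0.43 (SE 0.12) on the log2 scale, to 0.741 times the EtOH level (adjusted p = 0.0078), and the call was lost without donor 1 duplicate 1 at a log2 change of -0.42 (adjusted p = 0.037), without donor 2 duplicate 1 at -0.35 (adjusted p = 0.078), without donor 2 duplicate 2 at -0.45 (adjusted p = 0.017), without both duplicate 1 cultures at -0.30 (SE 0.18, adjusted p = 0.31) and with the duplicates of a donor summed at -0.45 (adjusted p = 0.024). It was also lost with library size alone at -0.21 (adjusted p = 0.16) and with PAC fitted alone at -0.43 (adjusted p = 0.013). In BAC it fell by 0.55 (SE 0.12) on the log2 scale, to 0.681 times the EtOH level (adjusted p = 0.00054), with log2 changes of -0.57 in duplicate 1 and -0.51 in duplicate 2. In BPAC it fell by 0.88 (SE 0.12) on the log2 scale, to 0.543 times the EtOH level (adjusted p = 1.6e-06), with log2 changes of -0.75 in duplicate 1 and -0.99 in duplicate 2. Without the BPAC culture that stood apart the log2 change was -0.72 (adjusted p = 2.6e-06).

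*Egfr*, the receptor of all 5 ligands measured here, fell in both genotypes with the *Braf* allele, calls that library size alone as the scaling ended. *Egfr* in AC stood at 63.4 and 70.0 CPM with EtOH and at 54.3 and 72.2 CPM with 4-HT. *Egfr* in PAC stood at 52.5, 60.2, 66.6 and 68.2 CPM with EtOH and at 45.9, 55.6, 42.2 and 62.7 CPM with 4-HT. The treatments overlapped in both genotypes. *Egfr* in BAC stood at 62.3, 67.8, 63.7 and 68.1 CPM with EtOH and at 42.6, 47.0, 44.2 and 52.5 CPM with 4-HT. *Egfr* in BPAC stood at 73.3, 82.0, 53.4 and 62.5 CPM with EtOH and at 37.6, 56.0, 37.8 and 49.3 CPM with 4-HT. They were separate in BAC and overlapped in BPAC, where each culture was nonetheless lower with 4-HT. In BAC *Egfr* fell by 0.49 (SE 0.14) on the log2 scale, to 0.711 times the EtOH level (adjusted p = 0.0060). With any 1 of the 4 BAC cultures left out the log2 change was about as large but missed the threshold, at -0.47 (adjusted p = 0.028), -0.48 (adjusted p = 0.028), -0.48 (adjusted p = 0.027) and -0.53 (adjusted p = 0.013) in the order of the cultures. With the duplicates of a donor summed it was -0.48 (adjusted p = 0.010). In BPAC it fell by 0.59 (SE 0.14) on the log2 scale, to 0.666 times the EtOH level (adjusted p = 0.0013), with log2 changes of -0.76 in duplicate 1 and -0.46 in duplicate 2, and without donor 1 duplicate 1 the log2 change was -0.47 (adjusted p = 0.023). The log2 changes in AC, -0.077 (SE 0.20, adjusted p = 0.85), and in PAC, -0.26 (SE 0.14, adjusted p = 0.16), did not pass. Without the PAC cultures of duplicate 1 the PAC log2 change was -0.12 (SE 0.19, adjusted p = 0.74). With library size alone the log2 change was -0.32 (adjusted p = 0.050) in BAC, -0.37 (adjusted p = 0.026) in BPAC and 0.14 in AC. With BPAC fitted alone it was -0.56 (adjusted p = 0.021).

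**Figure D2:**
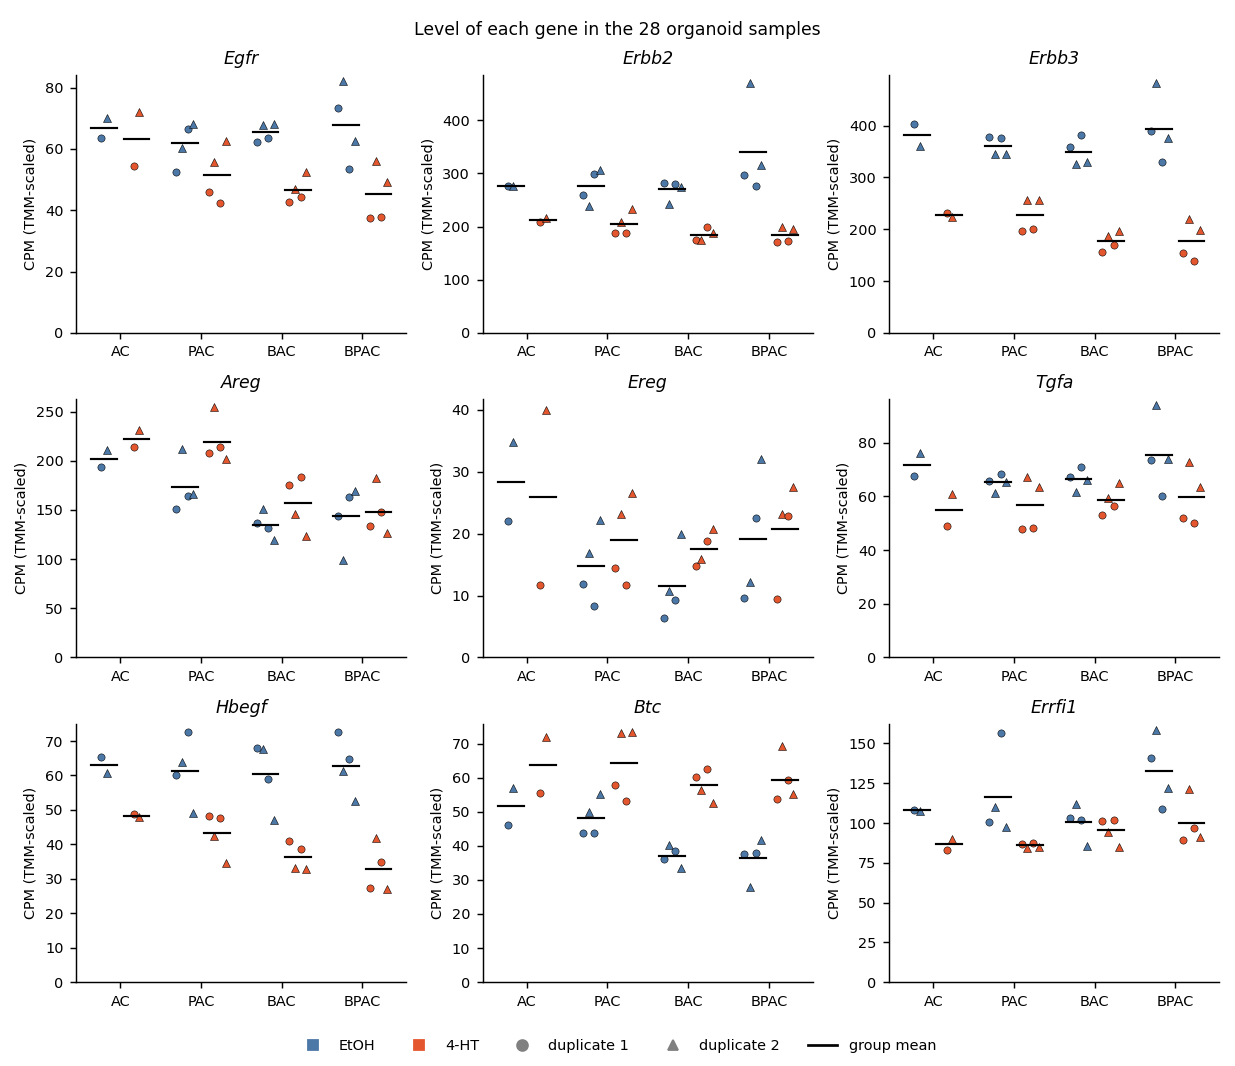
CPM of the 9 genes in every sample (y axis, from 0) by genotype (x axis), with EtOH in blue, 4-HT in red, circles for duplicate 1, triangles for duplicate 2 and a bar at each group mean. The *Erbb3* and *Erbb2* samples separate by treatment in all genotypes, whereas *Areg* separates by the *Braf* allele among the 4-HT-treated samples.

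*Hbegf* was the ligand that fell. *Hbegf* in AC stood at 65.5 and 60.8 CPM with EtOH and at 48.9 and 47.8 CPM with 4-HT. *Hbegf* in PAC stood at 60.1, 63.9, 72.7 and 49.0 CPM with EtOH and at 48.2, 42.3, 47.7 and 34.7 CPM with 4-HT. Within each of these genotypes the 4-HT-treated samples were all below the EtOH-treated ones. *Hbegf* in BAC stood at 68.0, 67.8, 58.8 and 47.1 CPM with EtOH and at 41.1, 33.1, 38.7 and 32.9 CPM with 4-HT. *Hbegf* in BPAC stood at 72.7, 61.2, 64.9 and 52.7 CPM with EtOH and at 27.3, 41.9, 34.9 and 27.0 CPM with 4-HT. The same separation held here, so that *Hbegf*, like *Erbb2* and *Erbb3*, was lower without overlap in 4 of 4 genotypes and in 14 of 14 cultures. These counts include the 2 PAC samples with *Xist* and Y-linked transcripts. Of all genes, 30.8%, 45.6%, 59.4% and 60.9% had an unadjusted p under 0.05 by edgeR for the 4-HT change in AC, PAC, BAC and BPAC. In PAC *Hbegf* fell by 0.51 (SE 0.15) on the log2 scale, to 0.704 times the EtOH level (adjusted p = 0.0094). With any 1 of the 4 PAC cultures left out it was about as large but missed the threshold, at -0.57 (adjusted p = 0.020), -0.48 (adjusted p = 0.039), -0.47 (adjusted p = 0.049) and -0.51 (adjusted p = 0.016) in their order. Without both duplicate 1 cultures the PAC log2 change was -0.55 (SE 0.21, adjusted p = 0.11). The call was also lost with library size alone at -0.28 (adjusted p = 0.12), with PAC fitted alone at -0.50 (adjusted p = 0.026) and with counts thinned to the smallest total at -0.48 (adjusted p = 0.017). In BAC *Hbegf* fell by 0.73 (SE 0.15) on the log2 scale, to 0.604 times the EtOH level (adjusted p = 0.00022), with log2 changes of -0.65 in duplicate 1 and -0.80 in duplicate 2. In BPAC *Hbegf* fell by 0.94 (SE 0.15) on the log2 scale, to 0.521 times the EtOH level (adjusted p = 9.1e-06), with log2 changes of -1.16 in duplicate 1 and -0.73 in duplicate 2. The AC log2 change was -0.39 (SE 0.21, adjusted p = 0.22).

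*Btc* was the ligand that rose, and it was higher with 4-HT in 14 of 14 cultures. *Btc* in AC stood at 46.3 and 57.0 CPM with EtOH and at 55.6 and 71.9 CPM with 4-HT. *Btc* in PAC stood at 43.8, 49.8, 43.8 and 55.1 CPM with EtOH and at 57.7, 73.0, 53.1 and 73.5 CPM with 4-HT. Ranges of the treatments overlapped in both genotypes. *Btc* in BAC stood at 36.0, 40.3, 38.6 and 33.4 CPM with EtOH and at 60.2, 56.4, 62.7 and 52.6 CPM with 4-HT. *Btc* in BPAC stood at 37.5, 27.9, 37.9 and 41.8 CPM with EtOH and at 53.8, 69.4, 59.2 and 55.3 CPM with 4-HT. In both genotypes with the *Braf* allele all 4-HT-treated samples lay above all EtOH-treated ones. In BAC *Btc* rose by 0.65 (SE 0.13) on the log2 scale, to 1.56 times the EtOH level (adjusted p = 0.00018), with log2 changes of 0.74 in duplicate 1 and 0.57 in duplicate 2. In BPAC *Btc* rose by 0.71 (SE 0.13) on the log2 scale, to 1.64 times the EtOH level (adjusted p = 5.2e-05), with log2 changes of 0.57 in duplicate 1 and 0.84 in duplicate 2. The PAC log2 change was 0.42 (SE 0.13, adjusted p = 0.013) and passed with the culture as a block, at 0.41 (SE 0.11, adjusted p = 0.0047). Without the PAC cultures of duplicate 1 it was 0.48 (SE 0.17, adjusted p = 0.086). The AC log2 change was 0.30 (SE 0.18, adjusted p = 0.27). With EtOH, *Btc* lay at 27.9 to 41.8 CPM (n = 8) in organoids with the unrecombined *Braf* allele and at 43.8 to 57.0 CPM (n = 6) in those without. These ranges did not overlap, but the log2 difference of -0.44 (SE 0.10, adjusted p = 0.079) missed the threshold across all genes, of which 0.0296% passed it in that comparison. With 4-HT the ranges overlapped, at 52.6 to 69.4 CPM with the allele and 53.1 to 73.5 CPM without.

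*Areg*, the most abundant ligand transcript per length, passed the test for the *Braf* allele among 4-HT-treated samples, and for the treatment it passed in PAC with library size alone but in no genotype with TMM scaling of all cultures. *Areg* in AC stood at 194 and 211 CPM with EtOH and at 214 and 231 CPM with 4-HT. *Areg* in PAC stood at 151, 212, 165 and 167 CPM with EtOH and at 208, 255, 214 and 201 CPM with 4-HT. Each of the 6 cultures was higher with 4-HT, without overlap of the treatments in AC and with overlap in PAC. *Areg* in BAC stood at 137, 151, 132 and 120 CPM with EtOH and at 176, 146, 184 and 123 CPM with 4-HT. *Areg* in BPAC stood at 144, 99.4, 163 and 169 CPM with EtOH and at 134, 182, 148 and 126 CPM with 4-HT. Direction varied between these cultures, with 3 of 4 higher in BAC and 1 of 4 in BPAC, and the treatments overlapped in both genotypes. The log2 change after 4-HT was 0.14 (SE 0.21, adjusted p = 0.72) for AC, 0.34 (SE 0.15, adjusted p = 0.079) for PAC (0.57, adjusted p = 0.0032, with library size alone), 0.22 (SE 0.15, adjusted p = 0.22) for BAC and 0.039 (SE 0.15, adjusted p = 0.84) for BPAC. In PAC without the cultures of duplicate 1 the value was 0.27 (SE 0.22, adjusted p = 0.48). With duplicate 1 alone *Areg* passed in BAC at 0.44 (adjusted p = 0.0015), and with duplicate 2 alone the BAC value was -0.0099. Duplicate 1 alone also gave 0.43 (adjusted p = 0.0026) in PAC, where the only 4-HT-treated samples are then the 2 that held both *Xist* and Y-linked transcripts, so that n = 2 may overstate the number of separate donors. The BPAC log2 change became -0.22 (adjusted p = 0.18) without the culture that stood apart. Among 4-HT-treated samples, the 8 with the *Braf* allele lay at 123 to 184 CPM (median 147) and the 6 without it at 201 to 255 CPM (median 214), with no overlap.

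*Ereg* had the lowest mean level per length among the ligands in all 8 groups. *Ereg* in AC stood at 22.0 and 34.8 CPM with EtOH and at 11.7 and 40.1 CPM with 4-HT. *Ereg* in PAC stood at 11.9, 16.9, 8.26 and 22.1 CPM with EtOH and at 14.4, 23.1, 11.6 and 26.5 CPM with 4-HT. Treatments overlapped in both genotypes. *Ereg* in BAC stood at 6.45, 10.7, 9.35 and 19.97 CPM with EtOH and at 14.8, 15.8, 18.9 and 20.7 CPM with 4-HT. *Ereg* in BPAC stood at 9.69, 12.2, 22.5 and 32.0 CPM with EtOH and at 9.47, 23.2, 22.9 and 27.6 CPM with 4-HT. Duplicate 2 was above duplicate 1 of the same donor and treatment in all 14 pairs, and the treatments overlapped in BAC and BPAC as well. The log2 change in BAC was 0.59 (SE 0.42, adjusted p = 0.24) without the culture block and 0.69 (SE 0.20, adjusted p = 0.0071) with it, a call that rests on the pairing, and it was 1.11 in duplicate 1 and 0.24 in duplicate 2. The log2 changes elsewhere were -0.14 (SE 0.59, adjusted p = 0.91) in AC, 0.35 (SE 0.42, adjusted p = 0.54) in PAC (0.35 without the duplicate 1 cultures) and 0.12 (SE 0.42, adjusted p = 0.83) in BPAC. The AC and BPAC values changed sign under some settings, among them library size alone for AC (0.084).

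*Tgfa* was lower with 4-HT in 13 of 14 cultures, and it passed the test in BPAC with the culture as a block or the duplicate number as a covariate but in no genotype without either when all cultures were fitted. *Tgfa* in AC stood at 67.6 and 76.2 CPM with EtOH and at 48.9 and 60.9 CPM with 4-HT. *Tgfa* in PAC stood at 65.9, 61.4, 68.2 and 65.6 CPM with EtOH and at 47.8, 67.1, 48.2 and 63.6 CPM with 4-HT. The exception was the PAC culture of donor 1 duplicate 2. *Tgfa* in BAC stood at 67.2, 61.8, 70.8 and 66.0 CPM with EtOH and at 53.1, 59.5, 56.6 and 65.0 CPM with 4-HT. *Tgfa* in BPAC stood at 73.6, 93.9, 60.1 and 73.9 CPM with EtOH and at 52.1, 73.0, 50.3 and 63.7 CPM with 4-HT. AC was the only genotype in which the treatments did not overlap. The BPAC log2 change was -0.34 (SE 0.13, adjusted p = 0.032) and -0.33 (SE 0.10, adjusted p = 0.0059) with the culture as a block. The log2 changes in AC, PAC and BAC were -0.39 (SE 0.19, adjusted p = 0.16), -0.20 (SE 0.13, adjusted p = 0.23) and -0.18 (SE 0.13, adjusted p = 0.24). Without the PAC cultures of duplicate 1 the PAC log2 change was 0.041 (SE 0.18, adjusted p = 0.91), and with library size alone it was 0.016. With duplicate 1 alone *Tgfa* passed in BPAC at -0.40 (adjusted p = 0.0030). In PAC that fit gave -0.47 (adjusted p = 0.0017), a value that rests on the same 2 4-HT-treated samples with *Xist* and Y-linked transcripts.

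*Errfi1*, the feedback inhibitor, was lower after 4-HT in 13 of 14 cultures. *Errfi1* in AC stood at 108 and 107 CPM with EtOH and at 83.2 and 90.2 CPM with 4-HT. *Errfi1* in PAC stood at 101, 110, 157 and 97.3 CPM with EtOH and at 86.8, 84.1, 87.6 and 85.0 CPM with 4-HT. Treatments did not overlap in these genotypes. *Errfi1* in BAC stood at 103, 112, 102 and 85.7 CPM with EtOH and at 101, 94.1, 102 and 85.2 CPM with 4-HT. *Errfi1* in BPAC stood at 141, 159, 109 and 122 CPM with EtOH and at 89.4, 122, 96.6 and 91.2 CPM with 4-HT. The treatments overlapped in BAC and in BPAC. In BPAC the level fell by 0.41 (SE 0.13) on the log2 scale, to 0.752 times the EtOH level (adjusted p = 0.0098). That call remained under 8 of 18 other settings. It was lost at a log2 change of -0.19 (adjusted p = 0.18) with library size alone, -0.42 (adjusted p = 0.018) with the duplicates of a donor summed, -0.38 (adjusted p = 0.048) with BPAC fitted alone and -0.40 (adjusted p = 0.011) with DESeq2 size factors. It was also lost with thinned counts, with either duplicate alone and when any of 3 of the 4 cultures was left out, with log2 changes between -0.44 and -0.33 and adjusted p between 0.011 and 0.10. The PAC log2 change was -0.44 (SE 0.13, adjusted p = 0.011), -0.41 (SE 0.10, adjusted p = 0.0023) with the culture as a block and -0.29 (SE 0.16, adjusted p = 0.28) without the PAC cultures of duplicate 1. The AC log2 change was -0.32 (SE 0.19, adjusted p = 0.26) and the BAC log2 change -0.074 (SE 0.13, adjusted p = 0.66), the latter 0.095 with library size alone. Of the 18 listed ERK target genes, the phosphatases, Sprouty and Spred proteins and immediate-early genes that commonly read out this pathway, 11 rose and 3 fell in BAC and 10 rose and 3 fell in BPAC, and 5 and 2 did so in PAC and 1 and 1 in AC. Of all genes 20.3% rose and 21.5% fell in BAC, 22.0% and 23.0% in BPAC, 11.2% and 12.2% in PAC and 3.00% and 4.25% in AC. The median log2 change of the ERK targets was 0.20, 0.26, 0.80 and 0.67 for AC, PAC, BAC and BPAC, and 5 of the 18 (*Dusp6*, *Etv4*, *Fosl1*, *Spred1* and *Spry4*) had a higher 4-HT change with the *Braf* allele, where 6.61% of all genes differed in either direction. *Phlda1* rose and *Dusp5* fell in all 4 genotypes. *Spry2* fell in PAC, BAC and BPAC, and *Egr1* fell in BAC and BPAC.

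Per length of exon, the receptor transcripts summed to less after 4-HT in every genotype, in 14 of 14 cultures, while the direction of the ligand sum varied. The length is that of all annotated exons of a gene together, 11326 bases for *Egfr*, 5210 for *Erbb2* and 6016 for *Erbb3*. Exons left out of the expressed transcripts lower a gene's value, so shares between genes are approximate. The summed receptor level with EtOH was 122 ± 4.48 CPM per kilobase in AC (mean ± SD, n = 2) and 119 ± 7.44, 116 ± 6.98 and 137 ± 28.3 in PAC, BAC and BPAC (n = 4 each). With 4-HT it was 84.1 ± 1.22, 81.7 ± 10.1, 68.9 ± 4.33 and 69.0 ± 9.82 in the same order. In BAC the part of *Erbb3* in this sum went from 50.1% ± 1.44 to 42.7% ± 2.48 while that of *Erbb2* went from 44.9% ± 1.36 to 51.4% ± 2.75. *Egfr* transcripts made up between 3.94% and 7.50% of the sum in every sample. For the 5 ligands the sum with EtOH was 209 ± 13.97, 180 ± 22.7, 145 ± 11.8 and 156 ± 26.8 CPM per kilobase in AC, PAC, BAC and BPAC, and with 4-HT 222 ± 19.0, 217 ± 22.3, 163 ± 23.7 and 156 ± 24.9. It was higher with 4-HT in 2 of 2 AC, 4 of 4 PAC and 3 of 4 BAC cultures and lower in 3 of 4 BPAC cultures, where only donor 1 duplicate 2, which stood apart, went up, from 118 to 191. In the PAC cultures of duplicate 2 the receptor sum went from 109 to 87.5 (donor 1) and from 122 to 92.9 (donor 2), and the ligand sum from 212 to 251 and from 175 to 205. *Areg* accounted for most of the ligand sum, from 75.5% ± 4.27 in EtOH-treated BPAC to 83.2% ± 1.72 in 4-HT-treated PAC. Behind it *Hbegf* and *Btc* changed places. With EtOH in BPAC *Hbegf* gave 8.60% ± 2.03 and *Btc* 5.17% ± 0.179 of the ligand sum, and with 4-HT *Hbegf* gave 4.33% ± 0.305 and *Btc* 8.48% ± 0.339. These sums and shares were computed as a description and were not tested.

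**Figure D3:**
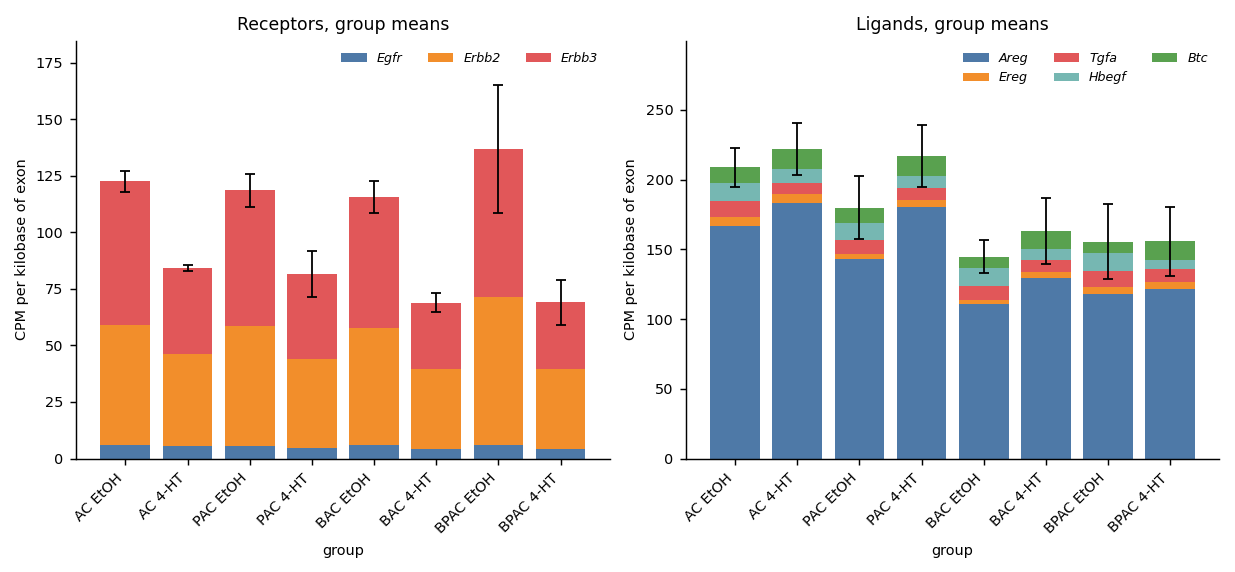
Stacked group means of CPM per kilobase of exon for the 3 receptors (left) and the 5 ligands (right) in the 8 groups (x axis), with the SD of the summed level as bars. The receptor columns are shorter with 4-HT in every genotype, and *Areg* fills most of each ligand column.

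The effect of the *Braf* allele on these changes was tested by subtracting the average change in organoids without the allele from the average in those with it. None of the 9 genes (0 of 9) passed with edgeR, limma-voom, DESeq2 or the culture as a block, against 6.61% of all genes with edgeR. At an unadjusted p under 0.05 there were 5 of 9, against 28.5% of all genes. In log2 units these were *Egfr* at -0.37 (SE 0.16, adjusted p = 0.13), *Erbb2* at -0.31 (SE 0.14, adjusted p = 0.13), *Erbb3* at -0.35 (SE 0.14, adjusted p = 0.098), *Hbegf* at -0.39 (SE 0.16, adjusted p = 0.12) and *Btc* at 0.32 (SE 0.14, adjusted p = 0.14). With the PAC cultures of duplicate 1 left out they were -0.44 (SE 0.17, adjusted p = 0.080), -0.37 (SE 0.16, adjusted p = 0.11), -0.47 (SE 0.15, adjusted p = 0.045), -0.37 (SE 0.18, adjusted p = 0.19) and 0.29 (SE 0.14, adjusted p = 0.20) in this order, and again 0 of 9 passed. Each of the 5 point estimates lay in the direction of the gene's own 4-HT change. *Egfr* and *Btc* were called in BAC and BPAC and not in AC or PAC, but that contrast between genotypes did not itself pass. For the remaining genes the 95% interval, from the SE and the normal distribution, ran from -0.44 to 0.22 for *Areg*, from -0.25 to 0.33 for *Tgfa*, from -0.15 to 0.42 for *Errfi1* and from -0.67 to 1.16 for *Ereg*.

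Among 4-HT-treated samples, the level test for the *Braf* allele passed for 3 of the 9 genes, all lower, against 14.6% of all genes lower and 15.6% higher. Over both directions that count is near the share of all genes, so it is no result about these genes as a set. For *Areg* the log2 difference of BAC and BPAC from AC and PAC was -0.54 (SE 0.12, adjusted p = 0.00070), with -0.41 in duplicate 1 and -0.67 in duplicate 2. With EtOH, before recombination, the *Areg* log2 difference was -0.43 (SE 0.12, adjusted p = 0.099), and -0.49 (SE 0.13, adjusted p = 0.037) without the PAC cultures of duplicate 1. The test of the difference in change gave -0.11 (SE 0.17, adjusted p = 0.72) for *Areg*. Donors with and without the *Braf* allele are different mice, for every gene compared here. These fits take cultures as replicates, so they cannot tell allele from donor. *Erbb3* differed on the log2 scale by -0.36 (SE 0.10, adjusted p = 0.0058) with 4-HT and by -0.0031 (SE 0.10) with EtOH. Leaving out 1 culture at a time ended the *Erbb3* call for 7 of the 14 cultures, with adjusted p between 0.013 and 0.030. *Hbegf* differed on the log2 scale by -0.40 (SE 0.12, adjusted p = 0.0068) with 4-HT and by -0.015 (SE 0.12) with EtOH, and its call was lost for 10 of 14 left-out cultures, with adjusted p between 0.010 and 0.033, and without the PAC cultures of duplicate 1 at -0.32 (SE 0.12, adjusted p = 0.044). For *Egfr* the log2 difference was -0.32 (SE 0.11, adjusted p = 0.026), and -0.42 (SE 0.12, adjusted p = 0.0065) without those cultures and -0.31 (adjusted p = 0.0027) with the duplicate number as a covariate. Leaving out the BPAC culture that stood apart gave 4 calls, these 3 and *Egfr* at -0.38 (adjusted p = 0.0055). With EtOH 0 of 9 genes passed with edgeR, against 0.0296% of all genes, 0 with limma-voom and 1 with DESeq2. At an unadjusted p under 0.05 there were 2 of 9, a share near the 17.2% of all genes.

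For the *Trp53* allele no difference was detected in the 9 genes. In the change after 4-HT 0 of 9 passed with edgeR, limma-voom, DESeq2 or the culture as a block, 0 of 9 had an unadjusted p under 0.05, against 1.04% of all genes, and 0.0148% of all genes passed with edgeR. The 95% intervals reached from -0.33 to 0.24 for *Erbb3*, from -0.46 to 0.079 for *Erbb2* and from -0.49 to 0.16 for *Hbegf*. With EtOH, where the LSL allele is silent, 0 of 9 passed with edgeR, limma-voom or DESeq2, against 0.0592% of all genes with edgeR, and 1 of 9, *Errfi1*, had an unadjusted p under 0.05, against 4.96% of all genes.

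The wider ErbB pathway was read from lists of genes. Of 7 other ErbB receptors and ligands, *Egf* and *Nrg4* were among the genes counted, both with group means under 2 CPM, and *Erbb4*, *Epgn*, *Nrg1*, *Nrg2* and *Nrg3* were not analysed here. *Nrg4*, a neuregulin, went from 0.875 ± 0.298 to 0.368 ± 0.0813 CPM in BPAC (mean ± SD, n = 4), a log2 change of -1.23 (SE 0.33, adjusted p = 0.0031). *Egf* was lower with the *Braf* allele after 4-HT, at -1.28 (SE 0.36, adjusted p = 0.0060) on the log2 scale. Both were named after their values were seen. Of 9 counted proteins that shed ligands or guide their shedding, 1 rose and 1 fell in PAC, 0 rose and 2 fell in BAC, 0 rose and 2 fell in BPAC, and 0 were called in AC, beside 11.2% of all genes higher and 12.2% lower in PAC, 20.3% and 21.5% in BAC and 22.0% and 23.0% in BPAC. *Rhbdl2*, a rhomboid protease that can cut EGF family ligands within the membrane, was the 1 of the 9 whose change differed by the *Braf* allele, beside 6.61% of all genes. It went from 45.5 ± 2.30 to 21.2 ± 0.655 CPM in BAC, and its log2 changes for AC, PAC, BAC and BPAC were -0.50 (SE 0.15, adjusted p = 0.022), -0.61 (SE 0.11, adjusted p = 0.00012), -1.10 (SE 0.11, adjusted p = 9.5e-09) and -0.99 (SE 0.11, adjusted p = 3.1e-08), with a log2 difference by *Braf* of -0.49 (SE 0.12, adjusted p = 0.0062).

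Among 19 other brakes on the receptors and proteins of their degradation, 1 rose and 0 fell in AC, 1 and 1 in PAC, 3 and 4 in BAC, and 4 and 4 in BPAC. Of all genes 3.00% rose and 4.25% fell in AC and 11.2% and 12.2% in PAC. The BAC and BPAC counts are near the 20.3% and 21.5% of all genes in BAC and the 22.0% and 23.0% in BPAC. *Lrig1*, a membrane protein that leads ErbB receptors to degradation and marks intestinal stem cells, rose in all 4 genotypes, for example from 118 ± 7.60 to 213 ± 13.7 CPM in AC (n = 2) and from 101 ± 15.7 to 195 ± 17.8 CPM in BPAC (n = 4). Its log2 changes were 0.86 (SE 0.16, adjusted p = 0.0011), 0.82 (SE 0.11, adjusted p = 1.6e-05), 0.74 (SE 0.11, adjusted p = 6.8e-06) and 0.94 (SE 0.11, adjusted p = 2.0e-07) in AC, PAC, BAC and BPAC, and its difference by the *Braf* allele was 0.0060 (SE 0.13, adjusted p = 0.98). *Ptpn2*, a phosphatase that acts on EGFR among others, was the brake with a *Braf* difference, 0.34 (SE 0.07, adjusted p = 0.0031). That is 1 of 19 brakes, near the 6.61% of all genes, so the count is no result about this list. *Ptpn2* stood at 35.0 ± 1.73 CPM with EtOH and 47.3 ± 1.02 with 4-HT in BAC. It stood at 36.1 ± 1.07 and 36.8 ± 2.42 in PAC, and at 30.7 ± 1.45 and 34.9 ± 1.17 in AC (n = 2). Of 20 adaptors that couple the receptors to RAS and PI3K, 0 were called in AC, 0 rose and 1 fell in PAC, 1 rose and 6 fell in BAC, and 1 rose and 5 fell in BPAC. Of all genes 3.00% rose and 4.25% fell in AC, 11.2% and 12.2% in PAC, 20.3% and 21.5% in BAC and 22.0% and 23.0% in BPAC. The median log2 change of the shedding list lay between -0.22 and 0.12 over the 4 genotypes, that of the brakes between -0.15 and 0.04 and that of the adaptors between -0.11 and -0.09. The *Braf* difference passed for 2 of the 20 adaptors, beside 6.61% of all genes. These were *Gab1*, a docking protein, at -1.09 (SE 0.15, adjusted p = 4.6e-05) and *Pik3r1*, the regulatory subunit of PI3K, at -0.80 (SE 0.20, adjusted p = 0.0077). *Gab1* stood at 34.3 ± 6.88 CPM with EtOH and 12.8 ± 0.595 with 4-HT in BAC, at 32.9 ± 6.42 and 25.5 ± 1.39 in PAC, and at 39.0 ± 5.89 and 27.9 ± 2.52 in AC (n = 2).

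The genes whose levels followed each member most closely were found by Pearson's r of log2 CPM over the 28 samples, which share library scaling and fall into EtOH and 4-HT groups. For that reason r was also computed on the deviations from the 8 group means. *Erbb3* had the closest companions, *Synpo* (r = 0.988, and 0.918 for the deviations), *Slc22a23* (r = 0.986, and 0.895 for the deviations) and *Slc9a2* (r = 0.985, and 0.871 for the deviations). *Egfr* was closest to *Cdh1* (r = 0.947, and 0.888 for the deviations), *Erbb2* to *Sidt2* (r = 0.95, and 0.820 for the deviations), *Hbegf* to *Ypel3* (r = 0.937, and 0.738 for the deviations) and *Tgfa* to *Kif13b* (r = 0.900, and 0.895 for the deviations). For *Btc* the nearest was *Tnfrsf19* (r = 0.880, and 0.364 for the deviations), so most of that likeness lay between groups. *Areg* was nearest to *Adam8* (r = 0.841, and 0.587 for the deviations), *Ereg* to *Dse* (r = 0.881, and 0.864 for the deviations) and *Errfi1* to *Cdkn1a* (r = 0.867, and 0.919 for the deviations). Among the members themselves, deviations within groups went together most for *Erbb3* and *Tgfa* (r = 0.881), *Egfr* and *Tgfa* (r = 0.870), *Erbb2* and *Tgfa* (r = 0.739), *Egfr* and *Erbb3* (r = 0.729) and *Areg* and *Btc* (r = 0.726). Each group holds both duplicates, so a shift that genes share between duplicates 1 and 2 enters the r of the deviations. These correlations are descriptions over 14 cultures with 2 samples each and were not tested.

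The duplicate cultures of a donor were also compared, a comparison added after the data were seen. With the duplicate number as a covariate, 3 of the 9 genes passed for duplicate 2 against duplicate 1, a share near the 33.2% of all genes, so the count is no result about these genes, and their values are given because they bear on the fits of a single duplicate. *Ereg* was higher in duplicate 2 in 14 of 14 pairs of the same donor and treatment, with a median ratio of 1.59 and a log2 difference of 0.75 (SE 0.17, adjusted p = 0.00090). *Egfr* was higher in 14 of 14 pairs as well, with a median ratio of 1.16 and a log2 difference of 0.26 (SE 0.06, adjusted p = 0.00069). *Tgfa* was higher in 10 of 14 pairs, with a log2 difference of 0.20 (SE 0.06, adjusted p = 0.0046), and *Hbegf* was higher in 2 of 14, with one of -0.17 (SE 0.07, adjusted p = 0.059). Duplicates occur equally in all 8 groups. With the covariate, calls were added for *Btc* and *Errfi1* in PAC, for *Tgfa* in BPAC at -0.34 (adjusted p = 0.0070) and for the *Egfr* level with the *Braf* allele after 4-HT.

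**Figure D4:**
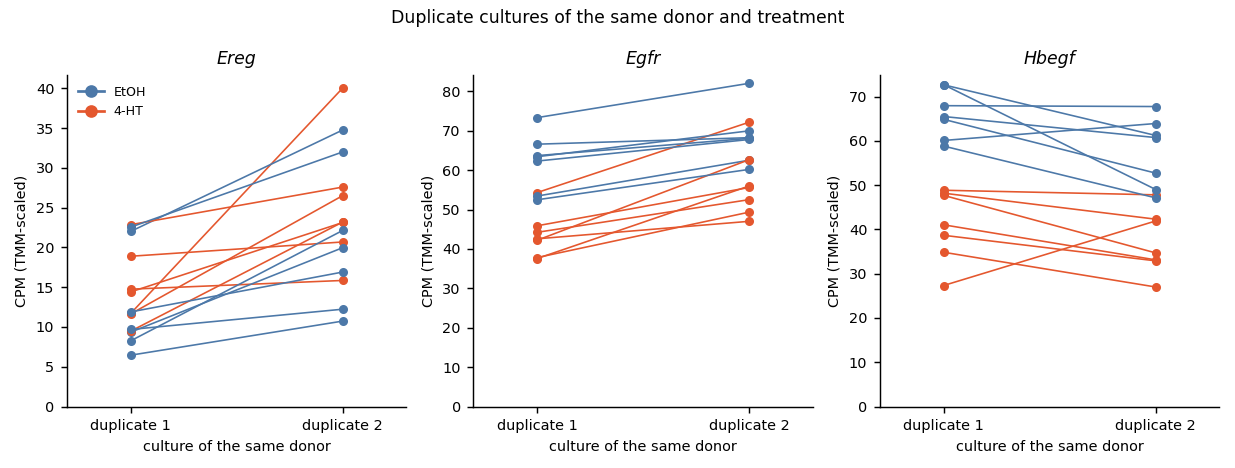
CPM of *Ereg*, *Egfr* and *Hbegf* (y axes, from 0) in duplicate 1 and duplicate 2 of the same donor and treatment, joined by a line, with EtOH in blue and 4-HT in red. All 14 lines rise for *Ereg* and *Egfr*, and 12 of 14 fall for *Hbegf*.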

How the data were processed

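Bulk RNA-seq was made from 28 samples of mouse colon organoids. The authors deposited whole-number read counts per gene, not normalized, in 1 table of 13519 genes, of which 13479 matched a symbol. The submitters' processing notes name Trimmomatic 0.39, STAR 2.5.2b and GRCm38. The study's methods name a minimum on a gene's summed counts, and the lowest sum in the table was 116. The counting program and its strand setting are not given in the sources used here. Counts were scaled by TMM and tested with edgeR 4.0.16 (quasi-likelihood, R 4.3.3) over all 28 samples in 8 groups, with Benjamini-Hochberg adjustment over all genes and a threshold of 0.01. The study's methods name limma, which was run as limma-voom (limma 3.58.1), and DESeq2 1.42.0 was run as a further alternative. The code was tested on simulated data. Levels per length used the length of all annotated exons of each gene together. Duplicates of a donor entered as separate cultures. Replicate numbers were taken to pair the samples of a donor. Both samples of a culture come from the same donor and their deviations went together in each of the 14 cultures (r from 0.245 to 0.532). A shift shared by samples of 1 duplicate number or 1 donor would also give this, so the check cannot establish the pairing. A single title without a number was taken as duplicate 1. The 9 genes, the gene lists and the tests were chosen with earlier results of these data known. All 9 were named in every comparison, and pathway genes and ERK targets where they passed in the *Braf* difference or in all 4 genotypes. ERK targets were also named where they fell, and *Nrg4* and *Egf* were exceptions named after their values were seen. For each member the genes with the highest r over the 28 samples were named. The duplicate covariate and the look at the BPAC culture that stood apart were added after seeing the data.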

Additional observations from a re-analysis of the deposited data

Results flagged for a closer look

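In groups of 4 cultures, the highest or lowest was compared with the nearest other by Dixon's rule, with the gap taken as a share of the group's range, over 81 groups of levels and changes, of which chance flags about 1 in 20. There were 3 such values. In PAC the *Egfr* log2 change of 1 culture, donor 2 duplicate 1, was -0.66, the largest fall of the 4, and it is one of the cultures whose 4-HT-treated sample held both *Xist* and Y-linked transcripts. In BAC the *Egfr* log2 change of donor 2 duplicate 2 was -0.37, the smallest fall of the 4. In BAC the *Errfi1* log2 change of donor 1 duplicate 2 was -0.25, with the other 3 cultures near 0.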

How the results depend on the processing

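Of 1107 recalculated values of single genes, 988 kept their direction and their side of the threshold, 71 lost a call, 23 gained one and 25 changed direction. The culture as a replicate block added the calls of *Btc* and *Errfi1* in PAC (5 called), *Ereg* in BAC and *Tgfa* in BPAC and changed no other call. With the duplicates of a donor summed, none of these 4 was called and those of *Erbb2* in PAC (adjusted p = 0.024), *Egfr* in BAC (0.0102) and *Errfi1* in BPAC (0.018) were lost. In AC the number called was 0 with library size alone, each genotype alone or duplicate 2 alone, and 0 to 0 without either culture. In PAC it was 5 with a threshold of 0.05, the DESeq2 Wald test, duplicate 1 alone (where the 4-HT-treated samples are the 2 with *Xist* and Y-linked transcripts) or the duplicate number as a covariate, 1 with each genotype alone, 0 without the PAC cultures of duplicate 1 or with duplicate 2 alone, and 1 to 2 with 1 culture left out. Duplicate 2 alone gave 1 in BAC, 3 in BPAC and 0 for the *Braf* allele level with 4-HT, which was 1 to 4 with 1 culture left out. DESeq2 gave 1 for the *Braf* level with EtOH. For all these settings the shares of all genes called are not given here. The numbers called therefore describe single calls and are no result about these genes as a set. None of the values that changed direction had been called. With library size alone they were *Egfr* in AC (0.14), *Ereg* in AC (0.084), *Tgfa* in PAC (0.016) and *Errfi1* in BAC (0.095). With duplicate 2 alone they were *Egfr* in AC (0.045), *Ereg* in AC (0.20), *Tgfa* in PAC (0.041), *Areg* in BAC (-0.0099), and the *Braf* difference of *Ereg* (-0.053) and *Tgfa* (-0.026). With duplicate 1 alone they were *Errfi1* in BAC (0.0051), *Areg* in BPAC (-0.14), *Ereg* in BPAC (-0.024), and the *Braf* level with 4-HT of *Ereg* (0.41) and *Btc* (0.085). Without the PAC cultures of duplicate 1 they were *Tgfa* in PAC (0.041), its *Braf* difference (-0.086) and its *Braf* level with 4-HT (-0.018). With 1 culture left out, values ran from -0.22 to 0.045 for *Egfr* in AC, -0.91 to 0.20 for *Ereg* in AC, -0.22 to 0.19 for *Areg* in BPAC, -0.11 to 0.32 for *Ereg* in BPAC, -0.0086 to 0.12 for the *Braf* difference of *Tgfa* and -0.53 to 0.36 for the *Braf* level of *Ereg* with 4-HT. A left-out AC culture, 1 duplicate alone or summed duplicates leave AC 1 sample per treatment, which is taken to vary like the other groups. The cause of these shifts was not tested. AC rests on 1 donor, and the other genotypes on 2, so differences between mice are poorly measured.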
